A study of Mus musculus with 8 samples.

Results

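The genes of peripheral myelin and of the Schwann cells that make it were measured as RNA in vagal ganglia, the ganglia that hold the cell bodies of vagal sensory neurons. The set was a list of 33 mouse genes matched by symbol to the deposited count table. All 33 had exactly 1 row among the 55335 genes of the table, and 32 of them were abundant enough to enter the test, which covered 17618 genes. The gene left out was Pmp2, with 1 to 6 counts in a library. The members were sorted by role into compact myelin proteins (5 genes), proteins of non-compact myelin, junctions and membranes (8), node adhesion (2), the basal lamina and outer Schwann cell membrane (5), myelin lipid enzymes (4), and regulators and signalling (9).

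Both groups were wild-type mice, and tissue was taken 1.5 h after challenge number 4. One group received HDM, an abbreviation that the labels do not spell out, and the control group received saline. Each group had 4 libraries, and each library was a pool of 6 to 8 ganglia from 3 to 4 mice. The sources used here do not give the strain, sex, age, dose or route. A batch label from 1 to 4 joined 1 HDM and 1 saline library, and replicate numbers below are these batches.

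A myelinating Schwann cell wraps 1 segment of a single axon in many layers of its own membrane. The layers are pressed together by compact myelin proteins, while pockets of cytoplasm remain in non-compact regions that carry adhesion and gap junction proteins. At each gap between segments, the node of Ranvier, Schwann cell and axonal adhesion proteins gather sodium channels. The membrane is rich in galactolipids and cholesterol, the program is held by the transcription factor SOX10, and axons drive it through neuregulin acting on ERBB2 and ERBB3 receptors. In a sensory ganglion, myelinating Schwann cells lie along the axons between the cell bodies, which are themselves covered by satellite glia.

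Levels are given as CPM, the usual depth-scaled count, after TMM normalisation, and between genes they are compared as CPM per kilobase of the counted length. A log2 fold change is HDM over saline with its standard error (SE), and a gene was called when the adjusted p of edgeR's quasi-likelihood test over all 17618 genes was under 0.05. Library totals, in mega-counts (M), ran from 23.95 to 26.67 M for HDM, all below the saline range of 26.87 to 31.28 M. The 33 genes took 0.439% to 0.476% of a library's counts in HDM (0.456% ± 0.0155, SD, n = 4) and 0.460% to 0.531% in saline (0.495% ± 0.0296), and these ranges overlapped. Libraries were made from whole ganglia, so fewer cells of a type and less RNA per cell cannot be told apart.

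Pmp22, Ugt8a and Aspa were the 3 members called in the comparison, all lower in HDM, and their promoter regions are shown because they carry the called difference. The sequences are the 250 bases before the RefSeq start site, on the gene's strand (GRCm38.p6). Capitals mark matches to the letters TATAAA, the core of a TATA box, and would also mark the SOX core letters ACAAAG and ACAATG, all searched on both strands. The Pmp22 window is chr11:63128732-63128981 on the plus strand, the first of 4 start sites listed for that gene. The Ugt8a window is chr3:125938653-125938902 and the Aspa window chr11:73324638-73324887, both on the minus strand. The Aspa window lies inside the counted span of that gene, which ends at 73329596.
Pmp22: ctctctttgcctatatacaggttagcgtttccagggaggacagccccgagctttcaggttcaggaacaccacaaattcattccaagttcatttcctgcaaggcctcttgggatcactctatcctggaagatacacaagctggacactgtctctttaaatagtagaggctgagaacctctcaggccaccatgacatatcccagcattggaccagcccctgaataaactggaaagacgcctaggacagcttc
Ugt8a: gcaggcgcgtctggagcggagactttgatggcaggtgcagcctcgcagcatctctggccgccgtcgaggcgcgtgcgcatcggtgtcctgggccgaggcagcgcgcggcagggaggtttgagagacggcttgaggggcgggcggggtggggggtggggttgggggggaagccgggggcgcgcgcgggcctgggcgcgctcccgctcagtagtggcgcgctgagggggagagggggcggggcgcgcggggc
Aspa: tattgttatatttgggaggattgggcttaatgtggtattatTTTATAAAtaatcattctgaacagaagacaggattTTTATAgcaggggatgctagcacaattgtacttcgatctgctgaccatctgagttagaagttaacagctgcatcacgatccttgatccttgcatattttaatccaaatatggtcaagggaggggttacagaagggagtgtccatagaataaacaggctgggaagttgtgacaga

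The 3 windows differed in composition, with 48.8% G and C for Pmp22 (61.2%, 64.8% and 73.6% at its later start sites), 76.8% for Ugt8a and 38.8% for Aspa. No match to either SOX core lay in them, and the Aspa window held 3 matches to TATAAA, starting 209, 207 and 174 bases before the start site, the first pair of them overlapping on opposite strands. Windows of the same length were found for 22 of the 33 members, 36 windows in all. Of these 36, 8 held ACAAAG or ACAATG (25.2% of all 32851 windows in the table did) and 2 held TATAAA (12.4% of all windows). A match is a description of letters only.

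**Figure D1:**
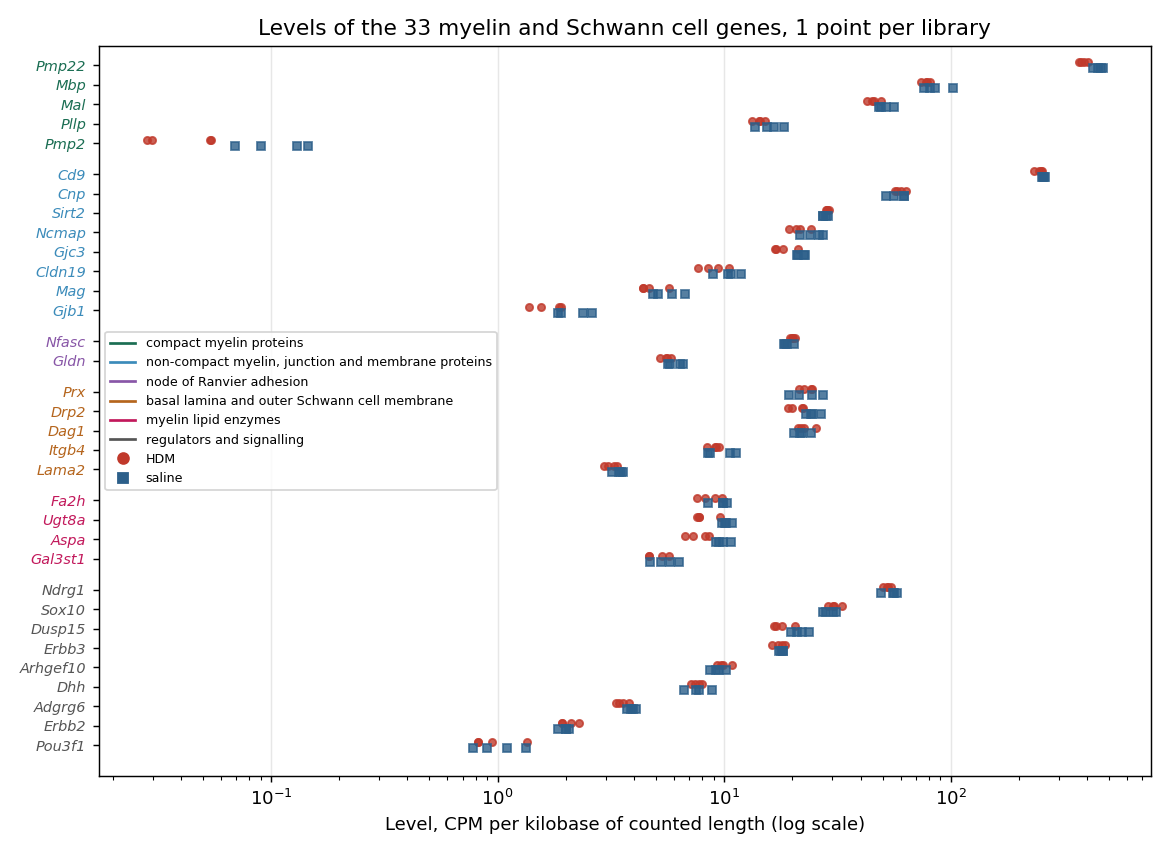
Levels of the 33 genes in CPM per kilobase of counted length (log axis), grouped by role, with 1 point per library (circles HDM, squares saline). Pmp22 and Cd9 lie above 200 and Pmp2 is the lowest gene, at a mean of 0.0752.

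The levels of the set spanned several orders of magnitude. Per length, Pmp22 was the most abundant member (mean over the 8 libraries 416 CPM per kilobase), followed by Cd9 (251), Mbp (82.0), Cnp (58.9), Ndrg1 (53.7) and Mal (48.4). Mbp and Pmp22 together held 33.8% to 34.5% of the members' counts in HDM and 35.5% to 37.5% in saline. At the low end were Erbb2 (2.02 CPM per kilobase), Gjb1 (1.93), Pou3f1 (1.01) and Pmp2 (0.0752). Genes used to define myelinating Schwann cells were present in every library, among them Prx (mean 130.7 CPM in HDM), Drp2 (178.6), Ncmap (47.8), Cldn19 (38.5) and Mag (19.5). Pmp2, which encodes the fatty acid binding protein P2 of myelin, was barely detected, at 1 to 6 counts in a library. Cd9, Cnp, Sirt2, Ndrg1, Dag1, Lama2, Nfasc and Itgb4 are also made by other cells of a ganglion, so their levels are not those of Schwann cells alone. For the remaining members, Pmp22 among them, counts from whole ganglia do not show which cells the RNA came from.

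Of the 32 tested members, 3 were called lower in HDM and 0 higher in edgeR, against 0.159% of all 17618 tested genes called lower and 1.23% called higher. At an unadjusted p under 0.05, 13 of the 32 were lower and 0 higher (7.69% and 10.4% of all tested genes), and limma-voom and DESeq2 also called 0 higher. With the batch as a block, 5 of 32 were called lower (1.03% of all genes) and 0 higher (3.01%). The log2 fold change was negative in 25 of 32 members (51.5% of all tested genes), with a median of −0.13 beside −0.01 for all tested genes, and single members ran from −0.38 to 0.08. All HDM libraries lay below all saline libraries for 5 tested members, Pmp22, Cd9, Drp2, Ugt8a and Aspa (4.39% of all tested genes), and none lay above (6.25%). As linear folds the members ran from 0.769 (Gjb1) to 1.06 (Arhgef10).

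**Figure D2:**
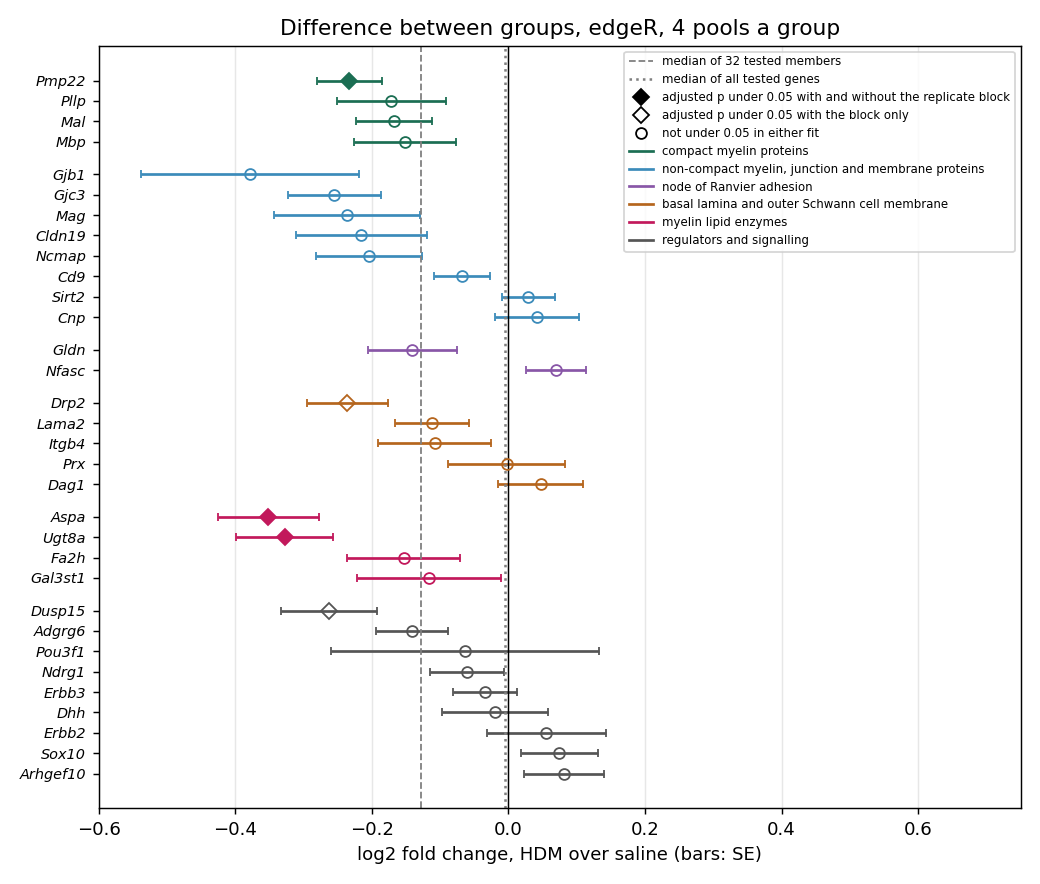
Log2 fold change of each of the 32 tested members, HDM over saline, with SE bars from edgeR (4 pools a group), grouped by role. Filled diamonds (Pmp22, Ugt8a, Aspa) passed with and without the replicate block, open diamonds (Drp2, Dusp15) with the block only, and the other 27 sit as open circles, the dashed line marking the members' median of −0.13.

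Compact myelin proteins were lower in HDM as measured values in all 4 tested genes, and 1 of them passed. Pmp22 (ENSMUSG00000018217, GRCm38 chromosome 11, 63128982 to 63159547), a 4-pass membrane protein of compact myelin whose dosage is altered in inherited neuropathies, had 884, 864, 948 and 907 CPM in HDM replicates 1 to 4. In saline replicates 1 to 4 it had 1102, 1051, 995 and 1087 CPM. The lowest saline library stood above the highest HDM library, both of batch 3. Pmp22 fell by 0.23 on the log2 scale (SE 0.048, edgeR adjusted p = 0.0336, and 0.0247 with the block), a 0.851-fold level, and was lower in 4 of 4 batches.

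Mbp (chromosome 18), the myelin basic protein that joins the inner faces of the membrane, had 660, 624, 685 and 662 CPM in HDM and 867, 724, 648 and 684 CPM in saline. Its groups overlapped, and saline 1 stood above the other 7 libraries. The log2 fold change was −0.15 (SE 0.074, edgeR adjusted p = 0.299). Mal, a raft-associated membrane protein, had 127 ± 7.47 CPM in HDM and 142 ± 9.59 in saline (SD, n = 4 each; log2 fold change −0.17, adjusted p = 0.139). Pllp, the related protein plasmolipin, had 29.6 ± 1.59 and 33.4 ± 4.13 CPM (−0.17, adjusted p = 0.276). Pmp2 had 1, 2, 1 and 2 counts in HDM and 5, 4, 6 and 3 in saline, at or near the 3 counts that a zero allows. It overlaps a same-strand predicted gene, Gm37389, and no fold is given.

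Among the 8 genes of non-compact myelin, junctions and membranes, 0 were called in edgeR with or without the block, and 5 were lower at an unadjusted p under 0.05. The median log2 fold change was −0.21. Gjc3, the gap junction protein connexin 29, had 79.4, 72.7, 92.6 and 73.4 CPM in HDM and 91.2, 98.6, 92.2 and 97.5 CPM in saline. HDM 3 alone of its group reached the saline range (adjusted p = 0.0770 for a log2 fold change of −0.25, SE 0.068, and 0.0569 with the block), and without HDM 3 the gene passed (−0.34, adjusted p = 0.0128).

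Gjb1, connexin 32, which links layers of the same Schwann cell, had the most negative value of the set but few counts, 56 to 86 in an HDM library and 92 to 125 in a saline one. That is 2.86 ± 0.431 CPM and 3.73 ± 0.633 CPM (adjusted p = 0.233 for a log2 fold change of −0.38, SE 0.16). Mag, an adhesion protein of the innermost Schwann cell membrane, had 17.9, 17.9, 23.3 and 19.0 CPM in HDM and 27.3, 24.0, 19.8 and 20.8 in saline. The same crossing was seen as for Mbp: HDM 3 stood high in its group and saline 3 lowest in its own (−0.24, SE 0.11, adjusted p = 0.263).

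Cldn19, the claudin of Schwann cell tight junctions, and Ncmap, a membrane protein of non-compact myelin, did not pass, at −0.22 (SE 0.096, adjusted p = 0.254) and −0.20 (SE 0.078, adjusted p = 0.190). Cd9, a tetraspanin and the most abundant gene of this role, had 501, 510, 514 and 476 CPM in HDM and 521, 526, 532 and 519 CPM in saline. Its groups did not overlap, yet the difference was small (0.954-fold, log2 fold change −0.07, SE 0.041, adjusted p = 0.412), and it had the smallest coefficient of variation of any member in saline (1.11%). Cnp, a cyclic nucleotide phosphodiesterase of myelin-forming cells, and Sirt2, a deacetylase that acts on tubulin, had positive values of 0.04 and 0.03 (adjusted p = 0.754 and 0.730), and both turned negative (−0.02 and −0.03) after a correction for GC content.

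At the node, Gldn, the Schwann cell ligand gliomedin, and Nfasc, whose products lie on both the axonal and the glial side, went opposite ways without passing. Nfasc had 284, 281, 277 and 290 CPM in HDM and 263, 269, 259 and 288 in saline, higher in 4 of 4 batches (adjusted p = 0.435 for a log2 fold change of 0.07, SE 0.044). Gldn had 25.7 ± 1.13 CPM in HDM and 28.4 ± 2.17 in saline (−0.14, SE 0.065, adjusted p = 0.271). Counts per gene do not separate the neuronal and glial isoforms of Nfasc.

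Genes of the basal lamina and outer membrane held 1 member that passed with the block. Drp2 (ENSMUSG00000000223, chromosome X, 134404551 to 134456573), which ties periaxin to dystroglycan at the outer Schwann cell surface, had 189, 164, 191 and 171 CPM in HDM. In saline it had 228, 210, 196 and 207 CPM. The groups did not overlap, and HDM 3 and saline 3 were the closest pair across them. Its log2 fold change of −0.24 (SE 0.059) had an adjusted p of 0.0661, and of 0.0328 once batch was blocked, and Drp2 was lower in 4 of 4 batches.

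The partners of Drp2 did not pass the test. Prx, periaxin, had 121, 127, 138 and 137 CPM in HDM and 155, 138, 110 and 121 in saline, with a log2 fold change of −0.00 (SE 0.086, adjusted p = 0.993). Prx differed more between saline pools (coefficient of variation 15.04%) than between HDM pools (6.09%). Dag1, dystroglycan, the laminin receptor at the centre of the complex, had a log2 fold change of 0.05 (SE 0.063, adjusted p = 0.735, and −0.01 after the GC correction). Lama2, the laminin chain of the nerve basal lamina, had −0.11 (SE 0.054, adjusted p = 0.293) and was lower in 4 of 4 batches. Itgb4, a laminin-binding integrin chain that perineurial cells also make, had −0.11 (SE 0.083, adjusted p = 0.519). Differences between these genes and Drp2 were not tested.

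The myelin lipid enzymes had the most negative median of the 6 roles (log2 fold change −0.24), and 2 of 4 were called. These 2, Aspa and Ugt8a, had the lowest transcript GC content of the members (39.7% and 39.9%). After the GC correction the role's median was −0.24, beside −0.23 for non-compact and −0.22 for compact myelin proteins. Ugt8a (ENSMUSG00000032854, chromosome 3, 125865271 to 125938619), the transferase that makes galactosylceramide, had 34.98, 34.95, 43.3 and 34.2 CPM in HDM and 48.9, 46.2, 45.7 and 44.3 CPM in saline. HDM 1, 2 and 4 lay close together, and HDM 3 came to just below the lowest saline pool. Ugt8a fell by 0.33 on the log2 scale (SE 0.071, adjusted p = 0.0422, and 0.0256 with the block), to 0.797-fold.

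Aspa (ENSMUSG00000020774, chromosome 11, 73304992 to 73329596), aspartoacylase, which frees acetate from N-acetylaspartate for lipid synthesis, had 51.3, 39.9, 49.0 and 43.3 CPM in HDM. In saline it had 58.7, 63.6, 54.96 and 56.6 CPM, and the groups did not overlap. Aspa fell by 0.35 on the log2 scale (SE 0.074, adjusted p = 0.0386, and 0.0328 with the block), to 0.784-fold. Fa2h, which hydroxylates the fatty acids of these lipids, had 24.7, 22.8, 27.5 and 29.6 CPM in HDM and 29.8, 29.8, 25.6 and 31.1 in saline (adjusted p = 0.349 for a log2 fold change of −0.15, SE 0.083). Gal3st1, the sulfotransferase that turns galactosylceramide into sulfatide, had 10.4 ± 1.04 and 11.2 ± 1.42 CPM (−0.12, SE 0.11, adjusted p = 0.596), and for both the groups overlapped.

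**Figure D3:**
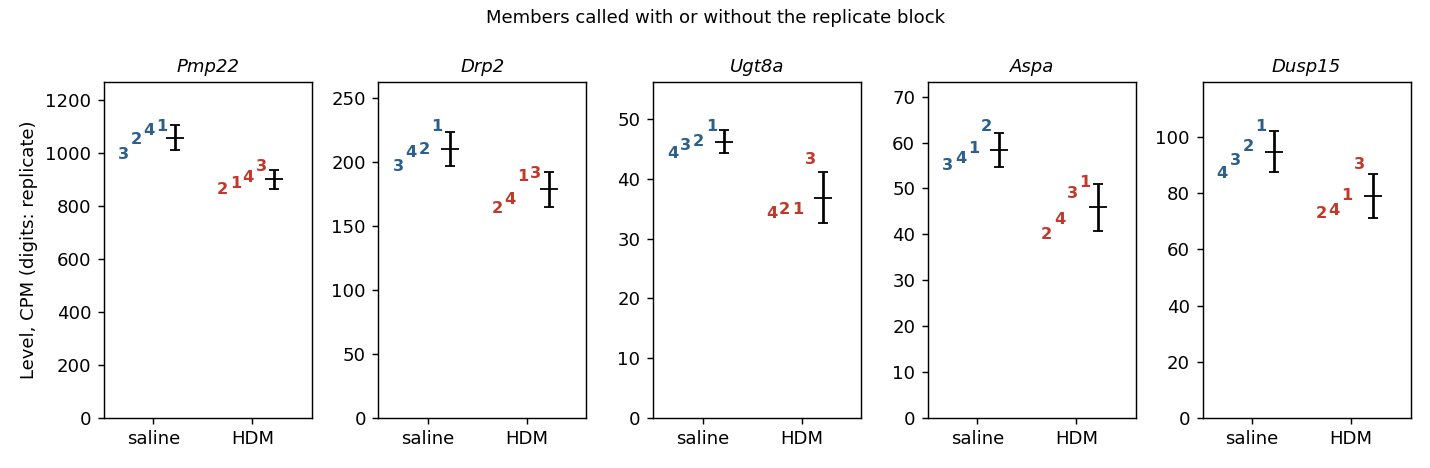
CPM of the 5 members called with or without the replicate block, each digit a library at its level and named by its replicate number, with mean and SD (n = 4) at the right of each group. HDM 3 is the highest HDM library for Pmp22, Drp2, Ugt8a and Dusp15, and Aspa differs in having HDM 1 highest.

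Of the 9 regulators and signalling genes, 0 were called without the block and 1 with it. Dusp15 (ENSMUSG00000042662, chromosome 2, 152940997 to 152951698), a phosphatase gene that is a known SOX10 target in myelin-forming glia, had 79.3, 72.8, 90.2 and 74.0 CPM in HDM and 104, 96.7, 91.7 and 87.0 CPM in saline. HDM 3 exceeded saline 4, so the groups overlapped. Its log2 fold change of −0.26 (SE 0.070) had an adjusted p of 0.0773, and of 0.0426 once batch was blocked, with 4 of 4 batches lower. Without HDM 3 it passed too (−0.33, adjusted p = 0.0217).

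Sox10 itself had 92.4, 93.4, 87.3 and 102 CPM in HDM and 95.1, 85.5, 83.3 and 91.9 in saline. Its log2 fold change was 0.07 (SE 0.056, adjusted p = 0.511, and −0.07 after the GC correction). The 2 neuregulin receptor genes lay close to 0, with 0.06 for Erbb2 (SE 0.087, adjusted p = 0.773) and −0.03 for Erbb3 (SE 0.047, adjusted p = 0.746). The GC correction took Erbb2 to −0.05. Satellite glia make Sox10 and Erbb3 as well. Adgrg6, the adhesion receptor GPR126 that starts myelination, had 43.3 ± 2.53 CPM in HDM and 47.7 ± 1.83 in saline, lower in 4 of 4 batches without passing (−0.14, SE 0.053, adjusted p = 0.185).

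Ndrg1, a neuropathy gene of Schwann cells that other stressed cells also express, had 345, 331, 349 and 361 CPM in HDM and 382, 372, 324 and 367 in saline (adjusted p = 0.587 for a log2 fold change of −0.06, SE 0.054). Dhh, the desert hedgehog signal of Schwann cells to the nerve sheath, had −0.02 (SE 0.077), and Arhgef10, a guanine nucleotide exchange factor, 0.08 (SE 0.059, adjusted p = 0.496). Pou3f1, the factor of the promyelinating stage, had 75 to 158 counts in a library and the widest spread of the tested members in both groups (coefficients of variation 25.8% and 23.7%), so its −0.06 has an SE of 0.20. Median coefficients of variation of the 32 members were 6.18% in HDM and 7.09% in saline, beside 7.46% and 8.34% over all tested genes.

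**Figure D4:**
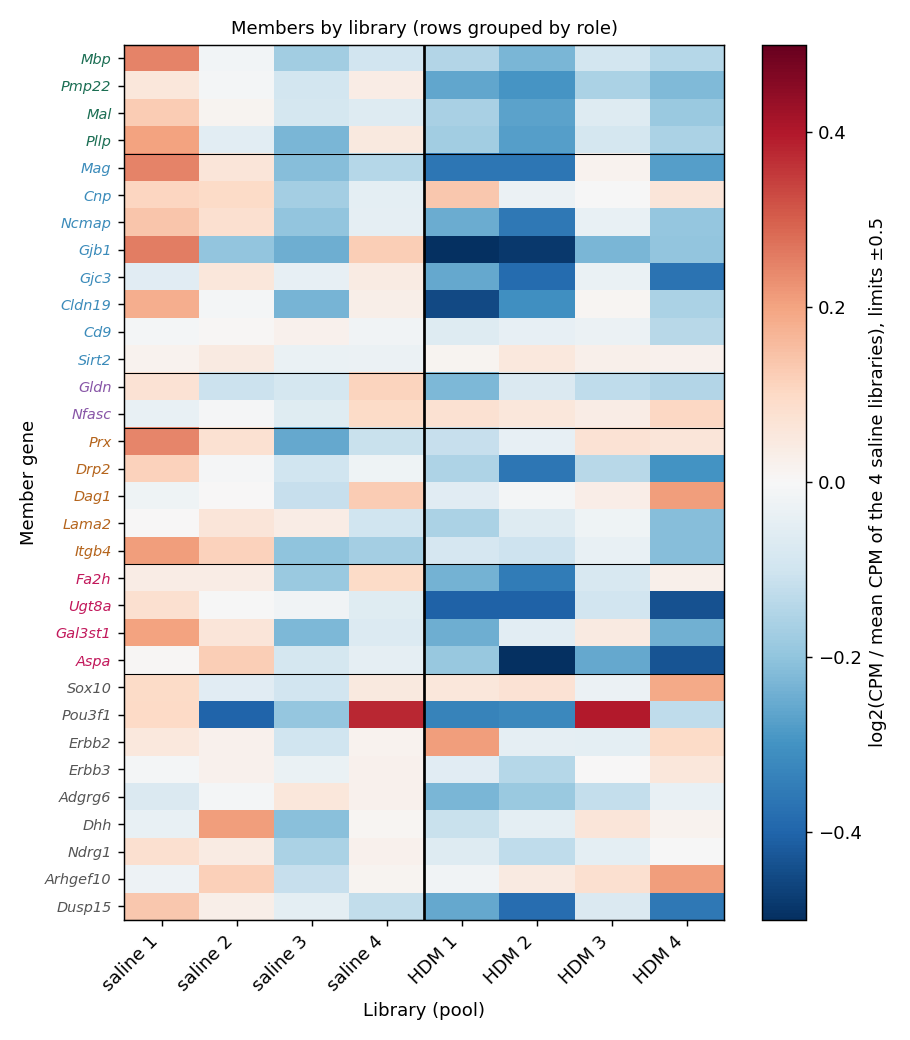
Log2 ratio of each member's CPM to its mean over the 4 saline libraries, by library (columns) and gene (rows, grouped by role), drawn with colour limits of ±0.5. Saline 1 is the highest saline library for 18 of the 32 members and saline 3 the lowest for 24, and HDM 3 is the highest HDM library for 18.

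HDM 3 and saline 3 each stood apart from the rest of their group in this set, in opposite directions. Saline 3 was the lowest saline library for 24 of the 32 tested members, saline 1 the highest for 18, and HDM 3 the highest HDM library for 18. The median of the members' log2 ratio to the saline mean was −0.16, −0.16, −0.04 and −0.14 in HDM 1 to 4, and 0.08, 0.02, −0.11 and 0.01 in saline 1 to 4. HDM 3 thus lay above saline 3, and the groups overlapped in this median. Within batches, 28 of 32 members were lower in HDM in batch 1 (50.4% of all tested genes), 27 in batch 2 (50.7%), 9 in batch 3 (48.7%) and 22 in batch 4 (47.5%). The median within-batch log2 ratio of the members was −0.27, −0.19, 0.07 and −0.12. In batch 3 most members were higher in HDM, and the 9 that were lower there were Pmp22 (−0.07), Drp2 (−0.04), Ugt8a (−0.08), Aspa (−0.17), Dusp15 (−0.02), Cd9 (−0.05), Lama2 (−0.06), Adgrg6 (−0.18) and Gldn (−0.04). All but Gldn were lower in 4 of 4 batches, which makes 8 of the 32 members, beside 2251 of all 17618 tested genes.

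**Figure D5:**
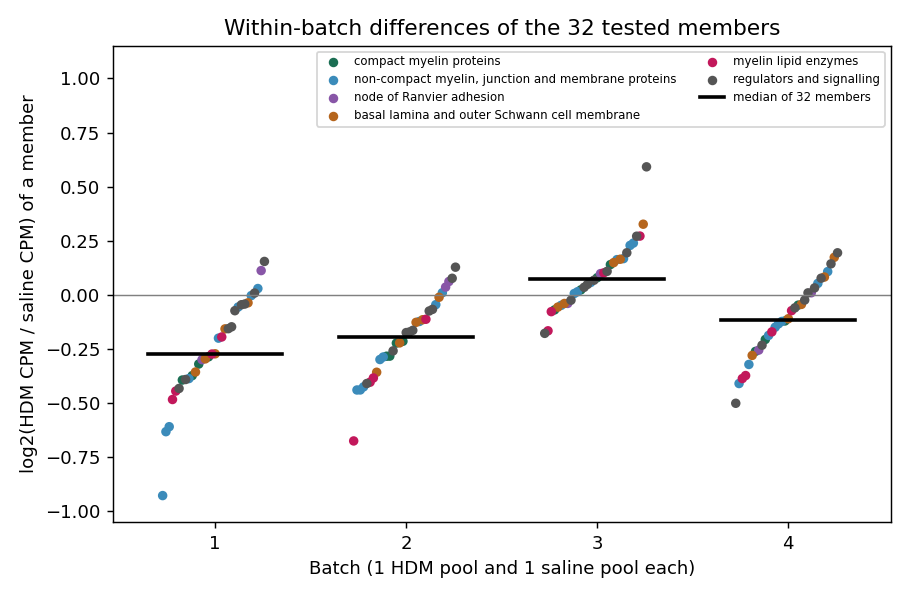
Log2 ratio of HDM to saline CPM within each batch for the 32 tested members, each point a gene coloured by role and ordered by value, the bar their median. The medians are −0.27, −0.19, 0.07 and −0.12, and only in batch 3 do most points lie above 0.

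The 3 calls depended on single libraries, as did the calls over all genes. Without HDM 1, HDM 2, HDM 4, saline 2 or saline 3, 0 members were called. Without HDM 3, 6 were called, and 2 without saline 1 or saline 4. Over all tested genes, 0 were called lower without HDM 1, HDM 2 or saline 3, 1 without HDM 4 and 2 without saline 2. The count was 88 without HDM 3, 32 without saline 1 and 21 without saline 4. With 1 library left out, log2 fold changes ran from −0.26 to −0.21 for Pmp22, −0.41 to −0.29 for Ugt8a and −0.41 to −0.29 for Aspa. The members' median log2 fold change stayed negative in each case, from −0.17 without saline 3 to −0.09 without saline 1. After the GC correction 0 members were called (adjusted p = 0.0716 for Pmp22, 0.252 for Ugt8a and 0.258 for Aspa). In that fit 0 of all 17618 tested genes were called in either direction. The members' median log2 fold change was then −0.17, beside 0.0015 for all tested genes, and 30 of 32 were negative. Pmp22 had −0.26, Ugt8a −0.24 and Aspa −0.26. With the block and that correction together, Pmp22 and Dusp15 passed (adjusted p = 0.0452 and 0.0377), against 0.0681% of all genes called lower.

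Genes that act with the members were taken as 7 lists, none of which held a member. Over all tested genes, 1.23% were called higher and 0.159% lower, and with the block 3.01% and 1.03%. On the axonal side of the node, paranode and juxtaparanode, 0 of 12 tested genes were called. With the block Sptbn4, the spectrin of the axon initial segment and nodes, passed as higher (0.29 on the log2 scale, adjusted p = 0.00952, and 0.0564 unblocked). Kcna2, a potassium channel of the juxtaparanode, passed as lower (−0.19, 0.0941 and 0.0379). The list's median was −0.02.

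Of 15 genes of neuregulin, LGI4 and PI3K-mTOR signalling, 1 was called higher and 0 lower, Akt1, a kinase downstream of ERBB receptors in many cell types (0.22, adjusted p = 0.0254). With the block Cdc42, a small GTPase needed for Schwann cell wrapping, passed as lower (−0.16, 0.0749 and 0.0433). Nrg1, the axonal ligand, and Bace1, the protease that processes it, had 0.03 and 0.02. In the basal lamina list, 0 of 15 were called, and with the block the paired collagen IV genes Col4a1 and Col4a2 passed as higher (0.25 and 0.28, adjusted p = 0.0345 and 0.0398 with the block).

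Of 14 transcriptional co-regulators, 0 were called. With the block Chd4, a chromatin remodeller, and Srebf1, a regulator of lipid synthesis, passed as higher (0.16 and 0.18, adjusted p = 0.0433 and 0.0450 with the block). Of 18 sphingolipid and cholesterol enzymes and regulators, 0 were called and the median was 0.01. The enzymes on either side of Ugt8a in the galactolipid path, Cers2, which makes long-chain ceramides, and Galc, which breaks galactosylceramide down, had −0.14 and 0.09 without passing.

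Of 13 tested genes of immature and repair Schwann cells, out of 16, 1 was called higher and 0 lower (1.23% and 0.159% of all tested genes). The median was 0.13, beside −0.01 for all tested genes. The called gene was Ngfr, the p75 neurotrophin receptor (922 CPM on average in HDM and 754 in saline, log2 fold change 0.29, adjusted p = 0.0445). Gap43 passed with the block (0.18, adjusted p = 0.0711 without and 0.0321 with it). Sensory neurons also express Ngfr, Gap43, L1cam and Ncam1. Of the 13, 10 were positive and 3 negative, while 51.5% of all tested genes were negative. Others of the list did not pass: Jun had 0.21 (adjusted p = 0.104), Sox2 0.18, Shh 0.08 and Gdnf 0.35, the last at about 1 CPM, while Gfap had −0.42, Runx2 −0.20 (lower in 4 of 4 batches) and Id2 −0.09. Olig1, Artn and Pax3 were too low to test. Among 13 further genes of demyelinating neuropathies, Sbf1 was called higher (0.20, adjusted p = 0.0470) and 0 lower, and Sh3tc2, Fgd4 and Litaf had −0.07, −0.03 and −0.05. None of the genes in these lists passed after the GC correction, and with the block added to it Gap43 did (adjusted p = 0.0415).

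Markers of other cells were measured beside the members. Summed over 11 sensory neuron markers, levels were 9264 to 9936 CPM in HDM and 8742 to 9089 in saline, with no overlap. Of the 11, 1 was called (Prph, the neuronal intermediate filament peripherin, 0.26, adjusted p = 0.0219), beside 1.23% of all tested genes called higher. The value was positive in 8 of 11 (51.5% of all tested genes were negative). With the block 5 of 11 were called higher (3.01% of all tested genes), among them Prph, Tubb3, Uchl1 and Nefh. After the GC correction the median of the 11 went from 0.13 to 0.05, and 0 were called, with or without the block. CPM are shares of a library, and the part of the higher neuron marker sums in the members' lower values was not tested. Summed satellite glia markers were 2577 to 2860 CPM in HDM and 2214 to 2834 in saline (0 of 10 called, 8 of 10 negative). Apoe, the most abundant of the 10, made up most of each sum (1854 CPM on average in HDM and 1574 in saline). It went the other way and was called higher with the block (0.24, adjusted p = 0.0235, and 0.151 unblocked), in 4 of 4 batches. With the block and the GC correction together it did not pass (0.12, adjusted p = 0.192). For 7 markers of non-myelinating Schwann cells the sums overlapped (3073 to 3310 and 2866 to 3218 CPM), with Scn7a called lower (−0.27, adjusted p = 0.0468) and Ngfr, in this list as well, called higher.

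Oligodendrocytes make many of the same myelin genes, so oligodendrocyte markers outside these shared genes were checked. Only 3 of 9 were abundant enough to test, and Mog and Olig2 were at 0.0209 and 0.00944 CPM in HDM and 0.0330 and 0.0257 in saline. The 9 summed to 15.4 to 18.3 CPM in HDM and 15.9 to 24.3 in saline, highest in saline 1. Much of each sum came from Myrf (5.42 to 8.58 CPM in a library) and Gpr37 (6.76 to 8.65 CPM). Which cells made these was not tested. Mobp had 0.517 to 3.69 CPM in HDM and 1.79 to 9.90 in saline (log2 fold change −1.51, adjusted p = 0.158). Myrf, a transcription factor of oligodendrocytes, had higher values in HDM, 7.51 CPM on average against 5.83, with no overlap of the groups (0.37, adjusted p = 0.0989, and 0.0684 with the block). The third, Gpr37, had −0.06. Saline 1, where 18 members were highest, also had the highest sums of 5 red blood cell genes (246.5 CPM, against 45.6 to 77.7 in the other 7 libraries), of 9 fibroblast and perineurial genes (1252 CPM, against 840 to 1032), of 6 endothelial genes (145.5 against 99.1 to 121.8) and of 8 macrophage genes (86.3 against 55.1 to 73.2). All 5 red blood cell genes were negative and 0 were called, and with the block Hba-a1 was called lower (−0.92, adjusted p = 0.0410, and 0.124 unblocked). The astrocyte sum was highest in saline 1 too (74.1 CPM, against 44.0 to 57.7). Other sums were lowest in saline 1, those of sensory neurons (8742 CPM), non-myelinating Schwann cells (2866) and sympathetic neurons (122.6). Without saline 1 the members' median was −0.09 and Pmp22 and Aspa were called. In the fibroblast and perineurial list 1 of 9 was called lower, Ogn (−0.44, adjusted p = 0.0390), and 2 with the block, which added Dcn, the most abundant of the list (−0.29, adjusted p = 0.0257, and 0.127 unblocked). All 9 were negative. Sympathetic neuron markers were highest in HDM 4 (799 CPM, against 122.6 to 353.8 in the others, 0 of 6 called). Skeletal muscle and adipocyte sums reached at most 3.54 and 10.8 CPM in any library. No gene of these marker lists of other cells passed after the GC correction, with or without the block.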

How the data were processed

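RNA was counted in 8 libraries of mouse vagal ganglia, 4 HDM and 4 saline, each a pool of animals. The deposited values are counts per gene, not normalised, made with featureCounts on GRCm38 (mm10), per the submitters' processing notes, from 1 merged alignment file a library per the file headers. The sources used here do not give the aligner, strand setting or versions. Libraries were prepared with a stranded mRNA kit and sequenced as paired 50 bp reads, per the labels' protocols. Exons of 14 of the 33 members overlap a gene on the other strand in GENCODE M21, so their counts are less certain. None of the 5 members called in either fit is among them.

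Symbols came from GENCODE M21, which matched 55154 of 55335 genes. The other column used, the counted gene length in bases, is also deposited. Genes were kept with filterByExpr (17618), scaled by TMM and tested with edgeR 4.0.16 (R 4.3.3) quasi-likelihood, with group as the only term, 2-sided, and Benjamini-Hochberg adjustment over all tested genes. SE is the log2 fold change divided by the root of F. The batch labels pair the libraries, so the blocked value is given where it changed a call. As a check, HDM and saline libraries of 1 batch were compared after centring each group, and the 4 correlations over genes lay between −0.05 and 0.04. Among all libraries, 0 correlated best with the other library of their batch. Alternatives were RLE factors, 2 filters, DESeq2 1.42.0, limma-voom (limma 3.58.1), the block, a GC correction (a natural spline, 4 degrees of freedom, fitted per library to log2 CPM deviations by transcript GC, using genes above a mean log2 CPM of 3), a threshold of 0.10 and leaving out libraries. Leaving out whole batches was added after the data were seen. The fits were tested on simulated counts.

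The members and lists were chosen with earlier results of these data known. Values per library were given for members called in either fit and for the most abundant member of each role per length, and for some others chosen after their values were seen. In each further list, genes called in either fit were named, except 2 that are not reported here, and others were added after their values were seen. Where a library shows 0 counts, the limit used was 3 counts, which covers counting error only. The pools were separate by label, and nothing further says how the animals were grouped.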

Additional observations from a re-analysis of the deposited data

Results flagged for a closer look

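Ugt8a in HDM 3 had 43.3 CPM, while the other 3 HDM libraries had 34.2 to 34.98 CPM. Its gap to the nearest of them was 0.918 of the group's whole range, above Dixon's 95% limit for groups of 4. It was the only such library among 66 sets of 4 libraries checked (33 members in 2 groups), and chance gives about 1 in 20. Without HDM 3 the log2 fold change of Ugt8a was −0.41.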

How the results depend on the processing

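Of 17618 tested genes 244 were called, and 3 members were called lower. These became 722 and 7 without a filter on low counts, 843 and 6 with DESeq2, 709 and 6 at a threshold of 0.10, 0 and 0 after the GC correction (2063 genes at an unadjusted p under 0.05), and 51 and 2 with block and GC correction together. With the replicate block alone they were 713 and 5, Drp2 and Dusp15 being added, and no other member's call changed. RLE factors, the stricter filter and limma-voom called the same 3 members. Leaving out single libraries or batches gave 0 to 376 genes and 0 to 6 members lower, with 0 genes without HDM 1, HDM 2, saline 3 or batch 2 (2449, 2452, 2373 and 2357 at an unadjusted p under 0.05), 60 without HDM 4, 97 without saline 2 and 376 without HDM 3. Members called higher were 0 throughout. The members' median of −0.13 ran from −0.21 without batch 3 to −0.077 without batch 1. The sign turned after the GC correction, alone and with the block, for Cnp (−0.0189 and −0.0176), Sirt2 (−0.0291 and −0.0292), Dag1 (−0.0089 and −0.0092), Sox10 (−0.0711 and −0.0705) and Erbb2 (−0.0462 and −0.0486), and for Prx with limma-voom (0.0081) and with the block (0.0072). With libraries or batches left out, values crossed 0 for Cnp (−0.0099 to 0.0971), Prx (−0.104 to 0.123), Dag1 (−0.0118 to 0.0895), Pou3f1 (−0.315 to 0.108), Erbb3 (−0.065 to 0.0058) and Dhh (−0.111 to 0.0661). What made calls or signs change from setting to setting was not tested. Gjb1, Pou3f1 and Pmp2 are limited by their counts.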
